A study of Bubalus bubalis with 3 samples.

Results

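The miR-378 family was described in fat of the Chinese swamp buffalo (Bubalus bubalis), a type of water buffalo kept for draught and meat. The family was taken as every row of the deposited miRNA table named bta-miR-378 with or without 1 trailing letter, which gave 4 members (bta-miR-378, bta-miR-378b, bta-miR-378c and bta-miR-378d, written below without bta, the prefix for cattle) of 622 listed names, 396 of them known bovine miRNAs. The series held 1 group of 3 small RNA libraries from adipose tissue of animals aged 6 months, named library 1, 2 and 3 after the sample titles. All 3 shared tissue, age and source, so no contrast between groups could be made. The labels state neither the fat depot nor whether the libraries came from different animals. An SD or p-value here therefore covers the spread between these samples alone, and that spread may be technical.

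A miRNA guides a silencing complex to messenger RNAs that pair with its seed, the stretch near its 5′ end. miR-378 is transcribed from an intron of PPARGC1B, which encodes PGC-1β, a coactivator of mitochondrial and fatty acid oxidation genes. In mice, loss of miR-378 together with its partner strand protected against diet-induced obesity, and its overexpression in fat enlarged brown fat. It is also abundant in striated muscle. The names with a trailing letter carry mature sequences similar to that of miR-378.

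Values were in TPM, which give the part that a name takes of all reads in the table on a common total per library, with no scaling by miRNA length visible. The smallest steps in the values put the depth at about 6860000, 6770000 and 5480000 reads in libraries 1, 2 and 3. The worth of 3 reads, used as the floor of detection, was 0.437, 0.443 and 0.547 TPM. Intervals and floors cover counting error only. No source used here says how a read that fits several family members was assigned, so the levels of miR-378b, miR-378c and miR-378d are uncertain to that extent. Levels of different miRNAs also depend on how each sequence is ligated and amplified, which was not measured. The names are those of cattle, and whether a sequence difference in buffalo lowered any value was not tested.

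The family was carried by miR-378. bta-miR-378 had 2824, 1158 and 2533 TPM in libraries 1, 2 and 3, from about 19383, 7840 and 13891 reads. Its lowest value was in library 2, and libraries 1 and 3 lay close together. The mean was 2172 TPM ± 890 (SD, n = 3). The 95% Wilson intervals for counting error were 2784 to 2864, 1133 to 1184 and 2492 to 2576 TPM, so the gap between library 2 and the other libraries was far wider than counting error, and libraries 1 and 3 were also separated by it.

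miR-378c was the only other member whose mean reached 10 TPM, the minimum used here for names that were compared. bta-miR-378c had 61.3, 22.6 and 53.1 TPM in libraries 1, 2 and 3, or about 421, 153 and 291 reads. The libraries stood in the same order as for miR-378. The mean was 45.7 TPM ± 20.4 (SD, n = 3).

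miR-378b and miR-378d were at the edge of detection. bta-miR-378b had 1.5, 0.1 and 0.9 TPM in libraries 1, 2 and 3, from about 10, 1 and 5 reads. It exceeded the floor in libraries 1 and 3 and lay under it in library 2. bta-miR-378d had 0.6, 0.3 and 0.4 TPM, or about 4, 2 and 2 reads, and exceeded the floor in library 1 alone. Over the 3 libraries the reads summed to about 16 for miR-378b (95% exact Poisson interval 9.15 to 25.98) and about 8 for miR-378d (3.45 to 15.8).

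**Figure D1:**
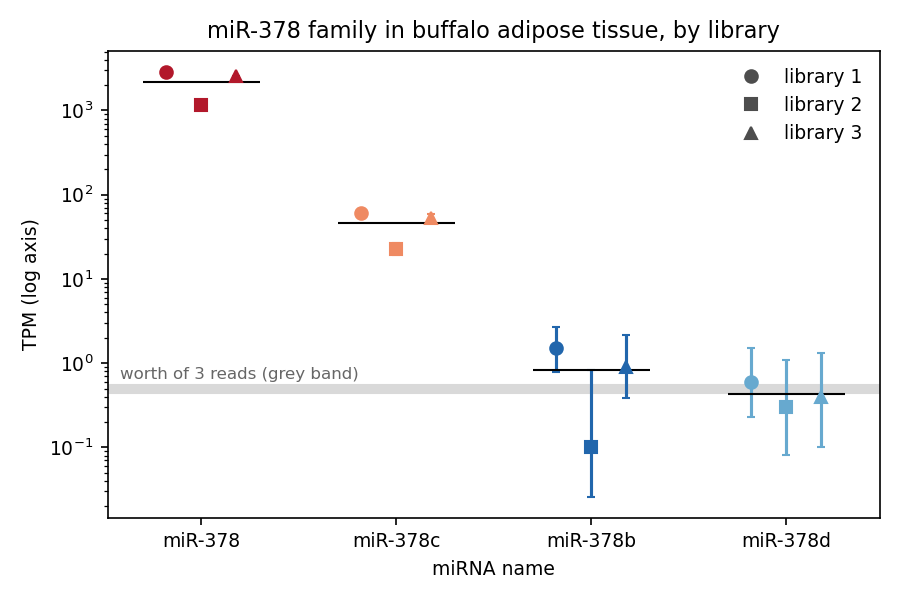
TPM of each family member on a log axis, with 1 point per library, 95% Wilson intervals of counting error as bars, the mean as a black line and the worth of 3 reads as a grey band. miR-378 sits between 1158 and 2824 TPM and miR-378c between 22.6 and 61.3 TPM, while miR-378b and miR-378d lie around the grey band.

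Together the 4 members held 0.222% ± 0.0911 of all TPM (SD, n = 3), with 0.289%, 0.118% and 0.259% in libraries 1, 2 and 3. miR-378 made up 97.8%, 98.1% and 97.9% of the family, with a mean of 97.9% ± 0.126. miR-378c made up 2.03% ± 0.107, miR-378b 0.0317% ± 0.0219 and miR-378d 0.0205% ± 0.00498. The total of the family differed 2.44-fold between its highest and lowest library, whereas its division between miR-378 and miR-378c hardly moved. How reads that fit both names were assigned is not stated, so miR-378 and miR-378c may not be separate measurements.

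The ratio of miR-378 to miR-378c was 46.1, 51.2 and 47.7 in libraries 1, 2 and 3, a mean of 48.3 ± 2.65 (SD, n = 3) with a coefficient of variation of 5.47%. Of the reads of these names, miR-378c held 2.13% (95% exact binomial interval 1.93% to 2.34%) in library 1, 1.91% (1.63% to 2.24%) in library 2 and 2.05% (1.82% to 2.30%) in library 3. The 3 intervals overlap, and a difference in the division of reads between libraries was not tested.

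Levels of the members were compared within each library as differences of log2(TPM + 1), which understate the distance to the low members. miR-378 exceeded miR-378c by 5.50, 5.62 and 5.55 log2 units in libraries 1, 2 and 3, a mean of 5.56 ± 0.06 (SD, n = 3). miR-378c exceeded miR-378b by 4.63 ± 0.20 and miR-378d by 4.91 ± 0.63. Each of these differences was in the same direction in 3 of 3 libraries and larger than its SD. miR-378b and miR-378d were not separated, with a difference of 0.28 ± 0.46 and miR-378b higher in 2 of 3 libraries. From summed reads, the ratio of miR-378b to miR-378d was 2 with a 95% exact interval of 0.808 to 5.4. Pairs were tested by flipping the signs of the library differences, an exact permutation test, two-sided, whose smallest p with 3 libraries is 0.25. Over the 6 pairs of members it gave p = 0.25 for every pair except miR-378b and miR-378d (p = 0.5), and Benjamini-Hochberg adjusted values of 0.3 and 0.5 in this permutation test.

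The members ranged from rank 29 to rank 376 of the 622 listed names. By mean TPM, with tied names given the best of their ranks, miR-378 held rank 29 of 622, with ranks 29, 31 and 28 in libraries 1, 2 and 3. miR-378c held rank 124, with ranks 122, 118 and 118. miR-378b held rank 319 and miR-378d rank 376 of all names, or ranks 265 and 296 of the 396 known bovine names. Against the median of the 166 names with a mean of 10 TPM or more, miR-378 lay 3.80 ± 0.19 log2 units higher (SD, n = 3). miR-378c lay below that median, with a difference of -1.76 ± 0.22.

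**Figure D2:**
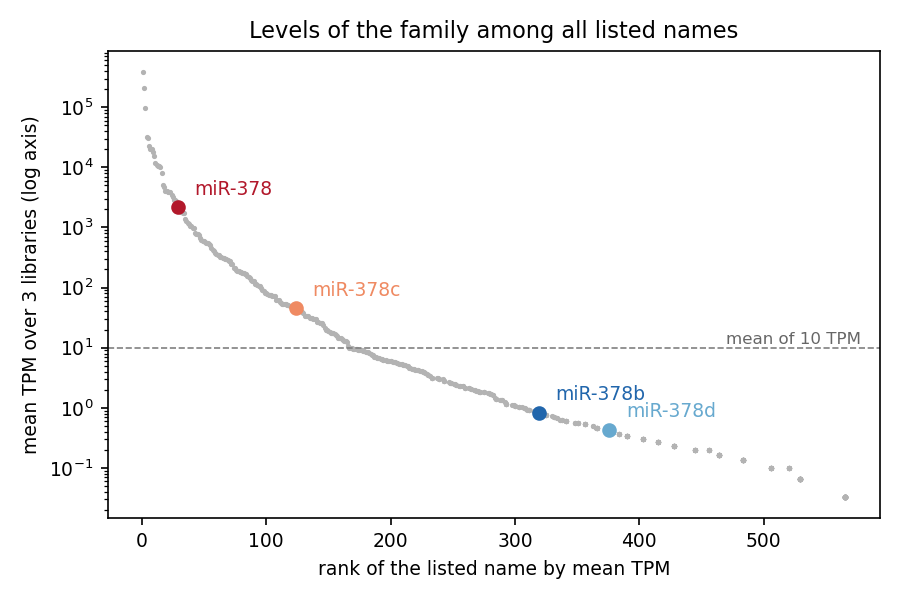
Mean TPM over the 3 libraries on a log axis against the rank of each listed name (tied names share the best of their ranks), with the family members in colour and a dashed line at 10 TPM. miR-378 stands at rank 29 and miR-378c at rank 124, above the line, while miR-378b and miR-378d stand at ranks 319 and 376 below it.

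The names next to miR-378 in level were miR-26b, let-7b, miR-199a-3p and let-7g. miR-26b, of a family that favours adipocyte differentiation in culture, stood just above with 2830 ± 1023 TPM (SD, n = 3), and miR-378 was lower by 0.41 ± 0.10 log2 units, with a difference of the same sign in 3 of 3 libraries. For let-7b (2790 ± 607 TPM), of a family linked to cell differentiation, the difference was -0.44 ± 0.37, also of the same sign in 3 of 3. miR-199a-3p, a miRNA of fibroblasts, stood just below with 1953 ± 881 TPM, and miR-378 was higher by 0.18 ± 0.13. let-7g followed with 1944 ± 728 TPM, a difference of 0.14 ± 0.11. miR-378 exceeded both in 3 of 3 libraries, by slightly more than the SD of the difference, and p = 0.25 in the exact permutation test for each of these 4 neighbours was the smallest it allows.

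The neighbours of miR-378c were not separated from it. miR-6529a (47.6 ± 19.9 TPM, SD, n = 3) and miR-17-5p (46.9 ± 17.9 TPM) stood above, with differences of -0.09 ± 0.42 and -0.07 ± 0.13 log2 units. miR-218 (42.5 ± 20.1 TPM) and miR-421 (42.4 ± 17.7 TPM) stood below, with differences of 0.10 ± 0.16 and 0.08 ± 0.10. Each difference was smaller than its SD.

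All 4 members were lowest in library 2 and highest in library 1. For miR-378d this rests on about 4, 2 and 2 reads, equal in libraries 2 and 3, and for miR-378b on about 10, 1 and 5. Both fall below the minimum of the names in the next sentence. Of the 166 names with a mean of 10 TPM or more, 91.6% were lowest in library 2 and 69.3% were highest in library 1, so this order is that of most names and not a result about the family. miR-10b, the most abundant name, held 26.5%, 48.8% and 40.4% of TPM in libraries 1, 2 and 3, and its part in the low values of library 2 was not tested. As deposited, log2(TPM + 1) of miR-378 deviated from its own mean by 0.48, -0.80 and 0.32 in libraries 1, 2 and 3. The median deviation of the 166 names was 0.47, -0.70 and 0.20.

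The spread of miR-378 between libraries depended on the scale. As deposited, the SD of log2(TPM + 1) was 0.70, place 66 from the smallest among 95 known names with a mean of 100 TPM or more, whose median SD was 0.60. Without library 2 it was 0.11, and with miR-10b taken out of the totals it was 0.49. After division by median-of-ratios size factors (1.39, 0.609 and 1.16), miR-378 had 2034, 1903 and 2190 scaled TPM in libraries 1, 2 and 3, and the SD was 0.10, place 15 of 95 against a median of 0.26. The coefficient of variation was 7.03% on that scale and 41.0% as deposited.

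miR-378c had a similar spread. Its SD was 0.76 as deposited and 0.16 after size factors, with 44.2, 37.1 and 45.9 scaled TPM. These were places 107 and 40 from the smallest among the 159 known names with a mean of 10 TPM or more, whose median SDs were 0.67 and 0.29. After size factors, miR-378 and miR-378c still had their lowest value in library 2, as did 31.3% of the 166 names. miR-378b was also lowest there, at about 1 read, and miR-378d was highest there, at about 2 reads, neither of which can be read at this depth.

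**Figure D3:**
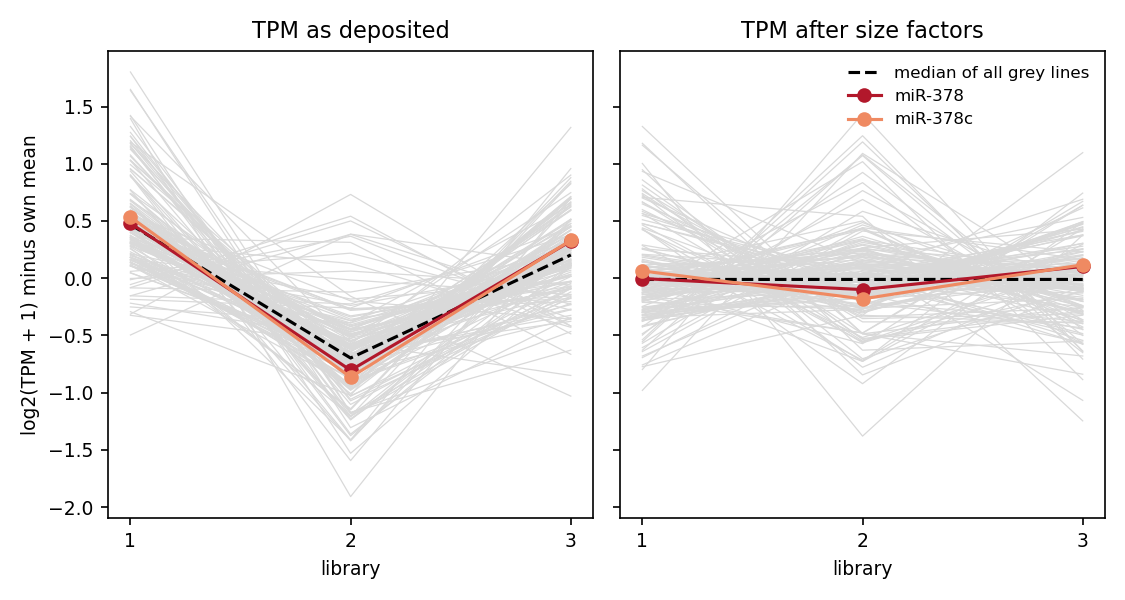
Deviation of log2(TPM + 1) from each name's own mean in each library, as deposited on the left and after size factors on the right. Grey lines are the 166 names with a mean of 10 TPM or more and the dashed line is their median. As deposited, miR-378 stands at 0.48, -0.80 and 0.32 in libraries 1, 2 and 3, close to the median, and after size factors at -0.003, -0.10 and 0.10.

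Names with a library pattern close to that of miR-378 were ranked by the root mean square difference between deviations of log2(TPM + 1), a description over 3 libraries only. Among 94 other known names with a mean of 100 TPM or more, the closest were miR-98 (0.023), miR-25 (0.031), miR-93 (0.036), let-7f (0.038) and miR-423-5p (0.050). miR-98 had 604, 251 and 529 TPM in libraries 1, 2 and 3. miR-25 had 1823, 711 and 1617 TPM. Of the 94 names, 15 lay within 0.1 of miR-378, and the median over all of them was 0.26. After size factors the closest 5 names included 5 of these 5. This follows from the measure, because a factor shared by both names cancels apart from the pseudocount, so it is no separate check. miR-378c, below that minimum, stood at 0.047, place 7 of 158 names when the minimum was 10 TPM. It stood at place 11 after size factors, a shift that comes from the pseudocount alone. The unknown assignment of shared reads limits the reading of this likeness.

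miR-378 was then placed beside other miRNAs with published roles in brown or beige fat, the heat-producing forms of adipose tissue. Of the list that favours these cells, without miR-378 itself, the table held 13 of 14 names, 10 of them at a mean of 10 TPM or more. miR-378 ranked below 2 of the 13 and above 11. At rank 29 of all 622 names, miR-378 exceeded most names of any kind. This count and those of the lists below are therefore not results about the lists. miR-26a had 96857 ± 23850 TPM (SD, n = 3), 44.6 times the level of miR-378, and miR-26b had 1.30 times its level. Next below came miR-92a with 1783 ± 529 TPM, whose direction of effect on these cells was not checked here. After it came miR-193b, which promotes brown fat differentiation in cultured mouse cells, with 587 ± 249 TPM. miR-378 lay 3.79 ± 0.35 log2 units above the list median, which itself lay at the median of the 166 names (0.01 ± 0.49). Those 166 names leave out any mean below 10 TPM, while this list and the next ones keep such members. Their list medians are lowered against that reference for this reason. Over the 10 members with a mean of 10 TPM or more the distance was 2.46.

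The list with roles against brown or beige fat was held in full, with 13 names, 9 of which reached 10 TPM. miR-378 ranked below miR-27b, which inhibits adipogenesis and targets PPARG in mouse and human cells, and above the other 12. miR-27b had 22362 ± 7643 TPM (SD, n = 3), 10.3 times the level of miR-378. miR-199a-3p and miR-125b (1743 ± 625 TPM) followed, with miR-378 at 1.11 and 1.25 times their means. miR-378 lay 4.85 ± 0.12 log2 units above the list median, and the list median lay at -1.05 ± 0.18 relative to the 166 names. Over the 9 members with a mean of 10 TPM or more the distance was 2.66.

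miRNAs of lipid metabolism had a lower list median than the brown or beige fat lists, with members below 10 TPM included. All 15 were listed, 8 reached 10 TPM, and miR-378 ranked below miR-27b and miR-148a and above 13. miR-148a, which targets the LDL receptor in human and mouse liver cells, had 10959 ± 4169 TPM (SD, n = 3), 5.05 times the level of miR-378. The third, miR-29a, had 414 ± 90.1 TPM. The list median lay 6.80 ± 0.34 log2 units below miR-378 and at -3.01 ± 0.34 relative to the 166 names. Those names leave out any mean below 10 TPM, which this list keeps. miR-122, the hepatocyte miRNA of cholesterol and fatty acid synthesis, had 0.6, 0.1 and 0.4 TPM, and miR-96 was listed at 0 in library 1.

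miR-378 was also set beside 6 miRNAs that, like it, lie in genes of metabolism or fat. All 6 were listed, 2 reached 10 TPM, and 0 of the 6 ranked above miR-378. miR-103, from introns of the pantothenate kinase genes of coenzyme A synthesis, had 869, 282 and 693 TPM in libraries 1, 2 and 3. Its mean of 615 ± 301 TPM (SD, n = 3) left miR-378 3.53 times higher. miR-107, of the same gene family, had 97.0 ± 59.8 TPM. The sterol-regulated miR-33b and miR-33a, from introns of SREBF1 and SREBF2, had 6.47 ± 2.60 and 6.0 ± 1.3 TPM. miR-335, in the imprinted MEST gene, had 5.0 ± 3.25 TPM, and miR-483, in IGF2, had 0.200 ± 0.173 TPM. The list median lay 8.14 ± 0.33 log2 units below miR-378 and at -4.35 ± 0.18 relative to the 166 names. Here too, members below 10 TPM were kept in the list but not in the reference. miR-378c (45.7 TPM) exceeded 4 of the 6.

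**Figure D4:**
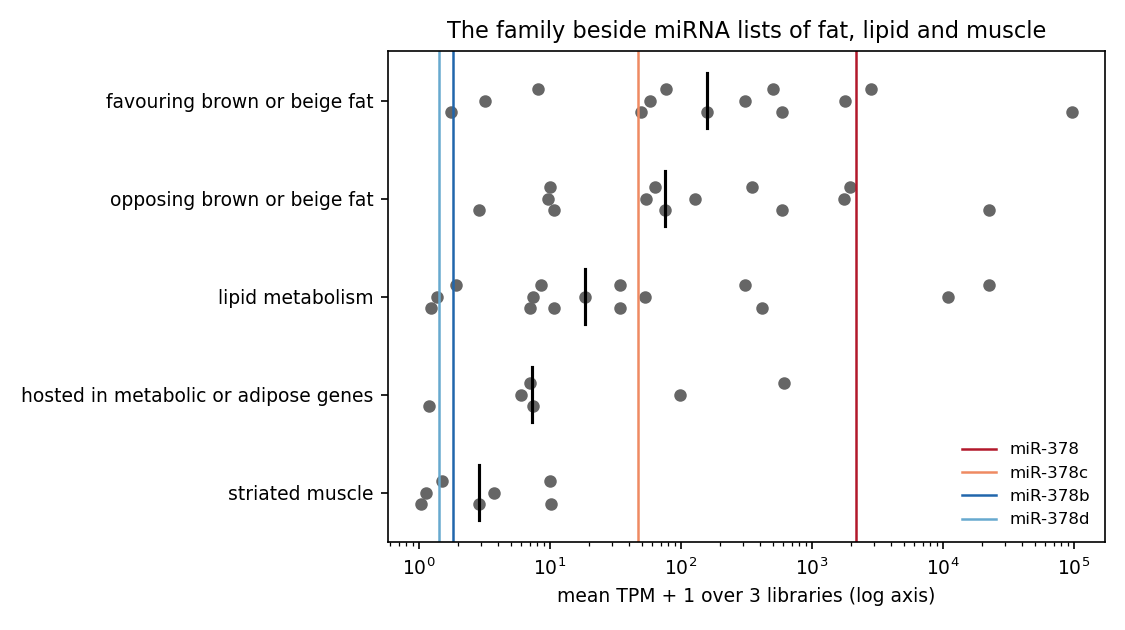
Mean TPM + 1 over the 3 libraries on a log axis for the listed members of 5 miRNA lists, each grey point 1 miRNA and each black bar the list's median, with coloured lines at the family members. The line of miR-378 lies right of all but 2, 1, 2, 0 and 0 points in the lists from top to bottom, and miR-378 is at rank 29 of all 622 names.

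Because miR-378 is abundant in striated muscle, muscle miRNAs were read beside it. All 7 muscle names were listed and none reached a mean of 10 TPM. Their sum was 36.2, 9.9 and 24.7 TPM in libraries 1, 2 and 3, against 2824, 1158 and 2533 TPM of miR-378. The highest were miR-1 with 9.27 ± 3.35, miR-133a with 9.03 ± 7.15 and miR-499 with 2.77 ± 1.10 TPM (SD, n = 3), and miR-206 and miR-208a were listed at 0 in libraries 2 and 3. The muscle sum was lowest in library 2, as were miR-378 and 91.6% of the 166 names with a mean of 10 TPM or more. This order is that of most names, and the part of muscle in the level of miR-378 was not tested. In bulk tissue, fewer cells of a type and less RNA per cell cannot be told apart.

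The summed markers of other cells were lowest in library 2 as well, again the order of most names (91.6% of the 166). All 8 adipose and stromal miRNAs, which are not specific to fat, reached 10 TPM and summed to 259421 to 376460 TPM. The endothelial miR-126-5p had 24511, 12638 and 23344 TPM in libraries 1, 2 and 3. The 3 red blood cell names summed to 6182, 2558 and 5046 TPM. The 5 white blood cell names summed to 1774, 390 and 666 TPM. After size factors their median deviation was 0.58, -0.21 and -0.48 in libraries 1, 2 and 3. That of the red blood cell names was 0.29, -0.56 and 0.09, but these names did not move together. In library 2, miR-451 had -0.72 and miR-144 had -0.56, while miR-486, the most abundant of them, had 0.12. For the adipose and stromal names the median was -0.23, -0.04 and 0.17, and miR-126-5p had -0.14, 0.09 and 0.05. Of the adipose and stromal names, miR-143 and miR-26a, the most abundant, had 0.29 and 0.84 in library 2. There, miR-214 had 0.18 and the others lay between -0.27 and -0.03. miR-378 had -0.003, -0.10 and 0.10 on that scale. Liver names summed to 0.1 to 2.1 TPM and epithelial names to 7.1 to 16.1 TPM. Most of the epithelial sum was miR-141, with 12.2, 6.6 and 10.8 TPM in libraries 1, 2 and 3. The part of these cells in the level of miR-378 was not tested.

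The dominance of 1 name was set beside other groups of known names that share a number, formed after the values were seen. Names that differ only in arm were summed and counted as 1 name, so a number listed with arms alone formed no group. Of 26 groups with at least 2 names and a summed mean of at least 100 TPM, the miR-378 group had the second highest share in its leading name, 97.9% ± 0.126 (SD, n = 3), against a median of 86.9%. It followed miR-411a, with 98.6%, 97.9% and 98.1% of its group in libraries 1, 2 and 3, a range that overlaps the 97.8% to 98.1% of miR-378. The SD of the miR-378 share was the second smallest of the 26, where the median was 1.78 percentage points, although a share near its upper limit has little room to vary. Among 34 groups with a summed mean of at least 10 TPM, miR-378 was at place 5.

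**Figure D5:**
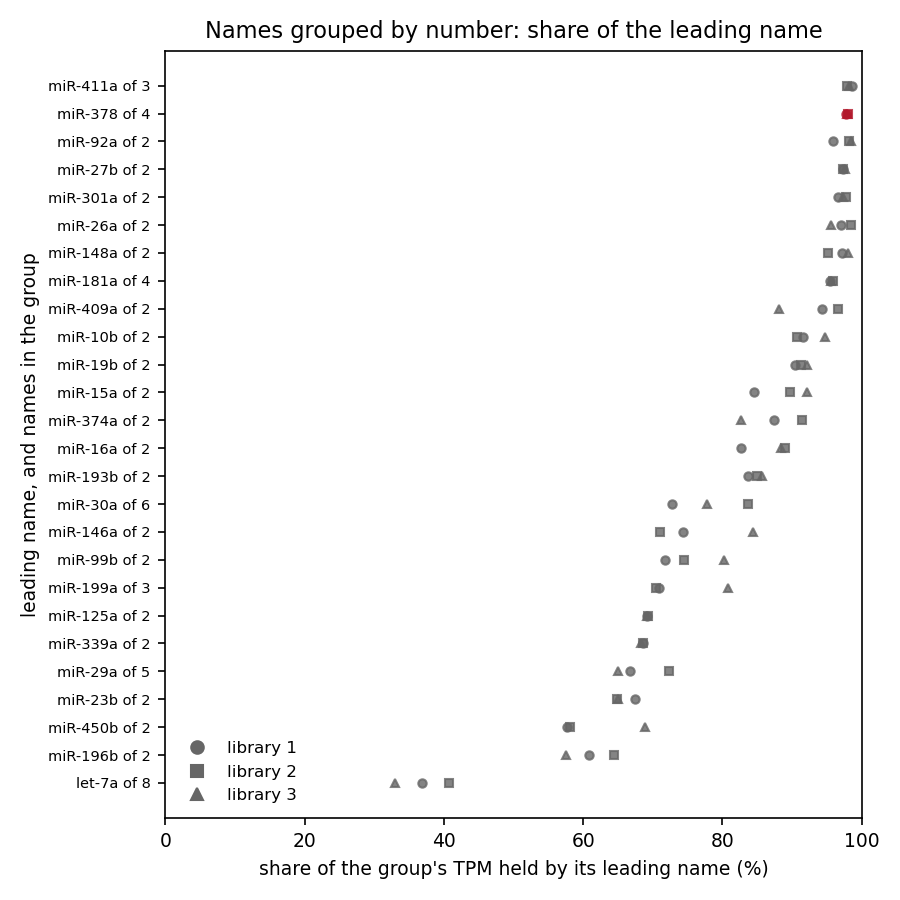
Share of a group's TPM held by its leading name in each library, for 26 groups of known names that share a number, with arms of a name summed. Each row gives the leading name and how many names the group has when arms are counted once. The points of miR-378 (red) lie between 97.8% and 98.1%, next to miR-411a at the top.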

How the data were processed

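Small RNA libraries were made from total RNA with adaptors ligated to both ends and sequenced on an Illumina instrument, per the labels' protocols. The aligner Bowtie and the bovine build UMD3.1 appear in the submitters' processing notes, with neither version nor step. The deposited values are TPM per the file headers, rounded to 0.1. All value columns were mapped to libraries by name and 0 were left over.

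Values of at most 30 TPM were whole multiples of a step in 100% of cases within 0.05 TPM, against 68.6%, 67.7% and 54.8% expected at random, which gave the depth. Reads derived this way are estimates and entered no count model. Values were analysed as log2(TPM + 1) in Python 3.11.15 (pandas 2.3.3, SciPy 1.17.1). Size factors used names above 0 in every library with a mean of at least 10 TPM. Scripts were tested on simulated data.

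Named miRNAs are the members, the 2 names on either side of miR-378 by mean TPM and the 5 with the closest library pattern. They include the 3 most abundant of each of the brown or beige fat, lipid metabolism, metabolic gene and muscle lists. The neighbours of miR-378c and other list members were named after their values were seen. Names sharing the seed were not analysed here. The more abundant arm stood for a stem, and lists share members (miR-27b, miR-34a, miR-30c and others). Members and lists were chosen with earlier results of these data known. With 1 group, descriptions and exact sign-flip tests of differences within libraries were made. Alternatives were other pseudocounts, minimums and scales, and each library left out.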

Additional observations from a re-analysis of the deposited data

How the results depend on the processing

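No paired analysis was possible because 1 group leaves no second group to match by replicate number (differences between names were taken within libraries). A tested difference was judged by direction and call, a level or rank by 1 SD between libraries, and an SD, a count of names or a place among groups by 1.5 times. On these rules 35 of 43 alternative values were unchanged, 8 moved and 0 reversed. With 3 libraries, leaving 1 out cannot move a mean share or list distance by 1 SD. The difference between miR-378 and miR-378c could not reverse then, as all 3 libraries shared its direction. Its p could not fall below 0.25 in the permutation test, so no call could change. The closest names after size factors were nearly fixed too, since the factors cancel. Those values were unchanged by construction and show no stability. The difference between miR-378 and miR-378c kept its direction, at 5.27 with a pseudocount of 10 against 5.56. The share of the family rose to 0.353% of TPM once miR-10b was left out of the total. The SD of miR-378 ranged from 0.11 to 0.91 with a library left out, lowest without library 2, and was 0.10 after size factors. With a minimum of 10 TPM, 3 of the 5 names closest to miR-378 were shared. The distance from miR-378 to the list medians was 2.46 (favouring) and 2.66 (opposing) over members with a mean of at least 10 TPM, as fewer low names entered, and 4.67 (opposing) with a pseudocount of 10. Place 2 by leading share became place 5 when groups from 10 TPM entered. The groups by number and their minimums were chosen after seeing the data. Depth limits miR-378b and miR-378d, at about 16 and 8 reads in all.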
